A study of Mus musculus with 11 samples.

Results

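The vesicular and plasma membrane glutamate transporters were followed as 7 genes in mouse retinas of 2 genotypes at postnatal days 4 and 8 (P4 and P8). They are Slc17a6, Slc17a7 and Slc17a8, which encode VGLUT2, VGLUT1 and VGLUT3, and Slc1a1, Slc1a2, Slc1a3 and Slc1a7, which encode EAAT3, EAAT2, EAAT1 and EAAT5. The genes were chosen by name and function, as 7 of the 47069 genes in the count tables, and all 7 were among the 18188 genes with enough counts to be tested. The clearest differences were between ages. From P4 to P8 the transcript of Slc17a6 fell 8.44-fold and that of Slc17a7 rose 5.92-fold, and the share of Slc17a7 in the vesicular transporter counts of a library was 15.9% to 80.6% at P4 and 86.8% to 98.7% at P8. Slc1a2, Slc1a7 and Slc1a1 rose by smaller factors, and Slc1a3 and Slc17a8 did not pass the test. No member passed the test between the genotypes at either age in the fit across all filtered genes.

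The 11 libraries hold 2 wild-type and 3 Kir2.1 samples at P4 and 3 of each at P8, all labelled as retina of C57BL/6 mice. Kir2.1 animals carry Brn3b-cre together with a transgene for human Kir2.1 joined to the reporter eYFP. Kir2.1 is a potassium channel of the inward rectifier family, which holds a cell near its resting potential. A CAG promoter drives the transgene once Cre has removed a floxed STOP cassette. Brn3b, also named Pou4f2, is a transcription factor of retinal ganglion cells, which are a small fraction of the cells of a retina. The labels disagree on 3 points: the protocol names Brn3b-cre animals as the control where the genotype field has wild type, it gives the later age as P11 where the age field has P8, and the source field names ganglion cells although the protocol describes enzymatic dissociation of the retina with no sorting. The field values for genotype and age are used here. Whether libraries came from separate or pooled animals is not given, so the p-values measure only the spread between these samples, which may be technical.

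Glutamate is the transmitter of photoreceptors, bipolar cells and ganglion cells. A vesicular glutamate transporter (VGLUT) loads it into synaptic vesicles, using the gradient made by a proton pump, and a cell without one does not release glutamate from vesicles. An excitatory amino acid transporter (EAAT) takes glutamate back up across the plasma membrane together with sodium, which ends the signal and limits its spread. In the adult retina VGLUT1 is known from photoreceptors and bipolar cells, VGLUT2 from ganglion cells, and VGLUT3 from a small class of amacrine cells. EAAT1 (GLAST) is the carrier of Müller glia, EAAT2 (GLT-1) is found in cones and bipolar cells, EAAT3 in amacrine, horizontal and ganglion cells, and EAAT5 at photoreceptor and rod bipolar terminals. Waves of spontaneous activity in the developing retina are driven by acetylcholine at the younger stage and later by glutamate.

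The upstream promoter windows of the member that fell most and of a vesicular and a plasma membrane member that rose are shown here, because their transcripts moved in opposite directions with age. Each run is 250 bases that end just before a start site annotated by RefSeq on GRCm38.p6, on the plus strand at chr7:51621580-51621829 for Slc17a6, chr7:45163671-45163920 for Slc17a7 and chr4:107968156-107968405 for Slc1a7. Capitals mark the E-box CANNTG, the letters read by bHLH factors such as those of neuronal differentiation.
Slc17a6: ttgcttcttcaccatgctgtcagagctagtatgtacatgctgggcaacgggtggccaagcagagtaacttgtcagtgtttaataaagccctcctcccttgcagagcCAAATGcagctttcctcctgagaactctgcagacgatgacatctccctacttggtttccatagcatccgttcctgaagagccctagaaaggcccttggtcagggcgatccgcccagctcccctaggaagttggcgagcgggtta
Slc17a7: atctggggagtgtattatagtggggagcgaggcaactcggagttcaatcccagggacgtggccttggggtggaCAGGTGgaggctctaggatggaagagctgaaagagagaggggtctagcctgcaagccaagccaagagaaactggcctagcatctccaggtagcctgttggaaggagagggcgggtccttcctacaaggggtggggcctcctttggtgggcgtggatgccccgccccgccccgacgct
Slc1a7: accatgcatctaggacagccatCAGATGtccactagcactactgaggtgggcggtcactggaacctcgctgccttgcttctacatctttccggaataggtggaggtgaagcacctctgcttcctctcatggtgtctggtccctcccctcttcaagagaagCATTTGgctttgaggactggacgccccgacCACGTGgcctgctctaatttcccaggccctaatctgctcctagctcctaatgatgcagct
The table held 9 such windows for the 7 genes, with a second start for Slc17a6 and for Slc17a8. The E-box was found in 8 of the 9 windows, once each in the Slc17a6 and Slc17a7 windows above and 3 times in that of Slc1a7, and in 66.2% of the 32851 windows of all genes. TAATCC, the core letters bound by the photoreceptor factors Crx and Otx2, was in 0 of the 9 windows on either strand and in 6.25% of all windows. TAATTA, the core of many homeodomain sites, was in 2 of the 9 windows, the later start of Slc17a6 and that of Slc17a8, and in 4.84% of all. The RefSeq starts need not be those of the gene spans given next: the last 74 bases of the Slc1a7 window, with 1 of its 3 E-boxes, lie inside that span, as do all 250 bases of the later windows of Slc17a6 and Slc17a8 and of the Slc1a2 window. These motifs do not overlap each other, and the matches describe letters only.

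All 7 members are protein-coding genes of GRCm38, the build named as mm10 in the submitters' processing notes. Slc17a6 spans chr7:51622006-51671119 and Slc17a7 chr7:45163949-45176142, both on the plus strand, and Slc17a8 spans chr10:89574020-89621253 on the minus strand. Slc1a1 lies at chr19:28835049-28913960, Slc1a2 at chr2:102658659-102790784 and Slc1a7 at chr4:107968332-108013532, all on the plus strand, and Slc1a3 at chr15:8634124-8710764 on the minus strand. Exons of Slc1a1 share 2631 bases with 4430402I18Rik on the other strand, a gene with 9 to 44 counts per library. Exons of Slc1a2 share 189 bases with the antisense gene Gm13872, which had 5 counts in Kir2.1 P8 replicate 2 and 0 in every other library. The strand setting of the counting is not given in the sources used here, so how reads over these stretches were assigned is not known.

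Libraries held 9362215 to 12478838 counts in genes. Levels are given as CPM, counts scaled to a common library size with TMM factors, and a log2 fold change carries the standard error (SE) of edgeR's quasi-likelihood fit, with p-values adjusted by Benjamini-Hochberg over all genes tested. A gene was called at an adjusted p under 0.05. Along the main axis of variation between libraries, which held 41.6% of the variance, wild-type P4 replicate 2 lay at -16.4, between the other P4 libraries at -74.6 to -55.4 and the P8 libraries at 37.8 to 54.0. Wild-type P8 replicate 1 lay apart on the next axis (74.6, against -39.7 to 28.4 for the other P8 libraries), and Kir2.1 P8 replicate 2 had counts in 31325 genes, against 22609 to 24591 elsewhere. Mouse Kcnj2, the counterpart of the human transgene, stood at 5.80 and 10.6 CPM in the wild-type and 2.45 to 6.41 CPM in the Kir2.1 libraries at P4, and at 3.74 to 17.2 and 4.90 to 17 CPM at P8. Reads of a human transgene need not align to it, so it does not check the labels. Markers of photoreceptors, bipolar, amacrine and horizontal cells and Müller glia were present in all libraries beside those of ganglion cells, as in a whole retina. Of the ganglion cell markers, Pou4f3 had no count in wild-type P8 replicate 2 and Kir2.1 P8 replicate 3.

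Slc17a6, the vesicular transporter of ganglion cells, was the member with the steepest fall. At P4 its level was 56.3 and 29.8 CPM in wild type and 22.6, 6.59 and 23.8 CPM in Kir2.1. By P8 the wild-type libraries were down to 3.93, 6.20 and 1.38 CPM and the Kir2.1 libraries to 2.81, 2.71 and 2.76 CPM. Every P4 library was above every P8 library, though Kir2.1 P4 replicate 2 came close to the highest P8 library. Over both genotypes the log2 fold change of Slc17a6 from P4 to P8 was -3.08 ± 0.39 (edgeR, adjusted p = 0.0002). Within wild type it was -3.49 ± 0.56 (edgeR, adjusted p = 0.00403), and within Kir2.1 it was -2.67 ± 0.54 (edgeR, adjusted p = 0.00599). The wild-type estimate was still -2.96 without wild-type P4 replicate 1, the library with the most Slc17a6, but the call was lost with 1 library in that group (edgeR, adjusted p = 0.0606). It was also lost when only the wild-type groups were fitted (-3.50, edgeR, adjusted p = 0.0514).

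Slc17a7, the vesicular transporter of photoreceptors and bipolar cells, went the other way. P4 levels were 11 and 50.6 CPM in wild type and 19.1, 28.0 and 24.5 CPM in Kir2.1. At P8 it reached 55.8, 139 and 202 CPM in wild type and 199, 200.2 and 187 CPM in Kir2.1. The ages did not overlap, but wild-type P4 replicate 2 was just below wild-type P8 replicate 1, and both are libraries that stood apart over all genes. The rise over both genotypes was 2.57 ± 0.39 on the log2 scale (edgeR, adjusted p = 0.000628). In Kir2.1 alone it was 3.03 ± 0.51 (edgeR, adjusted p = 0.00203). In wild type alone the difference was 2.1 ± 0.57 and missed the threshold (edgeR, adjusted p = 0.0602), while the DESeq2 test (2.11, adjusted p = 0.0204) and limma's voom with quality weights (2.39, adjusted p = 0.0203) called Slc17a7. With 1 library left out it ran from 1.38 without wild-type P4 replicate 1 (edgeR, adjusted p = 0.488) to 3.59 without wild-type P4 replicate 2 (edgeR, adjusted p = 0.00374). Either of these leaves 1 library at P4, which is then assumed to vary like the other groups. Without wild-type P8 replicate 1 the value was 2.45 (edgeR, adjusted p = 0.0108).

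Slc17a8, the transporter of a rare amacrine cell class, was close to the lower limit of these libraries, with 2 to 50 counts each. It was at 1.79 and 1.60 CPM in wild type and 1.21, 0.153 and 0.524 CPM in Kir2.1 at P4. At P8 the values were 4.57, 1.95 and 1.30 CPM in wild type and 1.49, 4.17 and 1.51 CPM in Kir2.1. The lowest value, from Kir2.1 P4 replicate 2, rests on 2 counts and has a 95% Poisson interval of 0.0186 to 0.554 CPM, which like every interval here covers counting error only. The ages overlapped, and the log2 fold change of 1.27 ± 0.53 did not pass the test (edgeR, adjusted p = 0.112). Within Kir2.1 it was 1.93 (edgeR, adjusted p = 0.0984), and ran from 1.27 to 2.77 with 1 library left out. The DESeq2 test called Slc17a8 there (1.94, adjusted p = 0.0448), with 20.9% of genes called. The highest Kir2.1 P8 value, 4.17 CPM, was from replicate 2, the library with counts in 31325 genes.

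**Figure D1:**
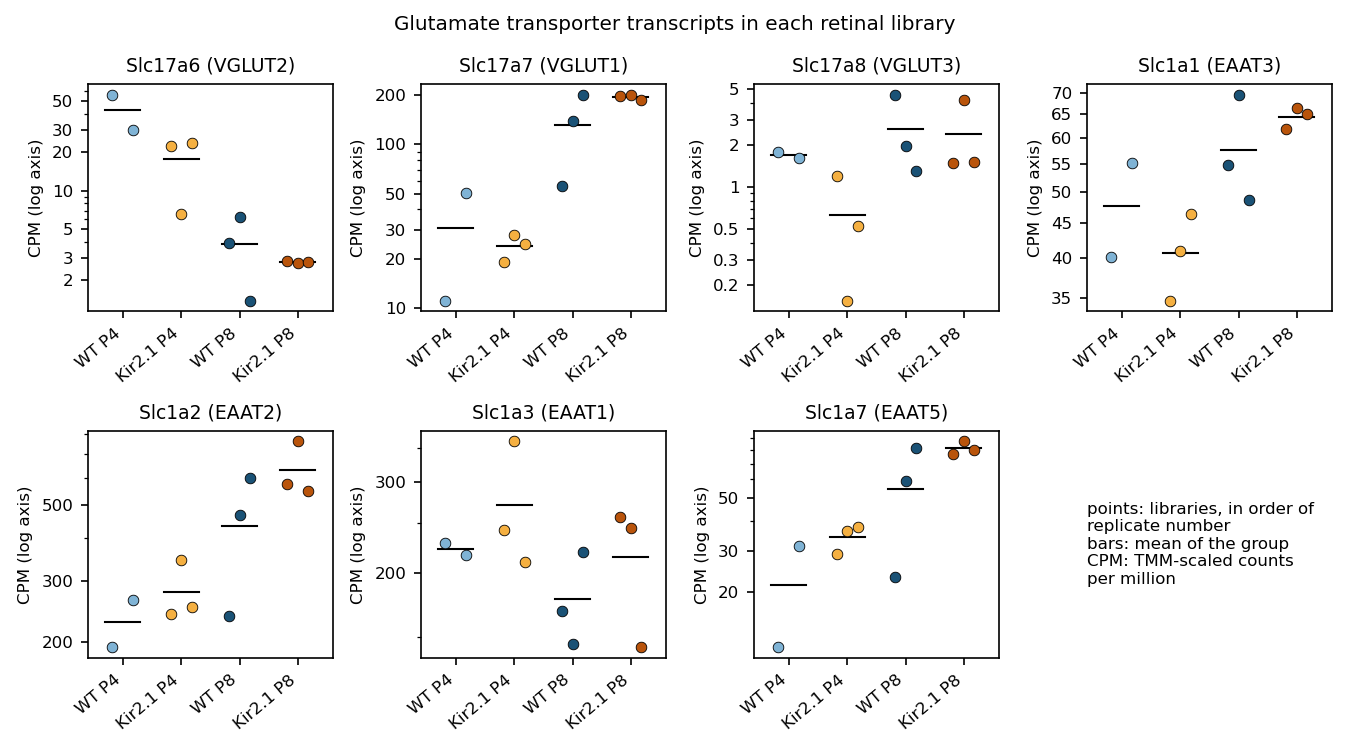
Level of each transporter in each of the 11 libraries, in TMM-scaled CPM on a log axis, by genotype and age. Points are libraries and bars are group means. Slc17a6 runs from 56.3 CPM down to 1.38 CPM and Slc17a7 from 11 up to 202 CPM with no overlap between the ages, while Slc1a3 shows no such step.

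Set against each other within a library, where no scaling between libraries enters, the vesicular transporters shifted toward Slc17a7. Slc17a7 made up 15.9% and 61.7% of the counts of the 3 vesicular genes in wild type at P4, with a Wilson 95% interval of 13.6% to 18.6% in replicate 1. It made up 44.6%, 80.6% and 50.2% in Kir2.1 at P4. At P8 the share was 86.8%, 94.5% and 98.7% in wild type and 97.9%, 96.7% and 97.8% in Kir2.1. All 6 P8 libraries thus lay above all 5 P4 libraries. The mean age difference within genotype was 46.7 percentage points, with an exact permutation p of 0.005 (two-sided, ages exchanged within genotype, adjusted p = 0.01 over 2 shares), which is the smallest p this design allows. Counts of Slc17a7 per count of Slc17a6 ran from 0.195 to 4.24 at P4 and from 14.2 to 146 at P8. Slc17a6 was the more abundant of the pair in 2 P4 libraries, wild-type replicate 1 and Kir2.1 replicate 1, and in no P8 library.

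Among the plasma membrane transporters, Slc1a3, the Müller glial carrier, was the one that did not rise. It stood at 229 and 216 CPM in wild type and 242, 360 and 210 CPM in Kir2.1 at P4. P8 values were 169, 145 and 220 CPM in wild type and 257, 244 and 143 CPM in Kir2.1. The ages overlapped, and the log2 fold change was -0.33 ± 0.18 (edgeR, adjusted p = 0.221).

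Slc1a2, the carrier of cones and bipolar cells, had the highest group mean of the members at P8. Its values at P4 were 193 and 266 CPM in wild type and 242, 347 and 253 CPM in Kir2.1. At P8 they were 238, 468 and 599 CPM in wild type and 576, 764 and 549 CPM in Kir2.1. Wild-type P8 replicate 1 was inside the P4 range and the other 5 P8 libraries were above it. The rise over both genotypes was 1.04 ± 0.21 on the log2 scale, or 2.06-fold (edgeR, adjusted p = 0.00424).

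Slc1a7 encodes EAAT5, a carrier with a large chloride conductance at photoreceptor and rod bipolar terminals. It was at 11.7 and 31.4 CPM in wild type and 29.2, 36.2 and 37.6 CPM in Kir2.1 at P4. P8 values were 23.1, 59.0 and 81.3 CPM in wild type and 77.2, 87.0 and 79.8 CPM in Kir2.1. Again wild-type P8 replicate 1 alone fell among the P4 libraries. The rise was 1.29 ± 0.30 on the log2 scale, or 2.45-fold (edgeR, adjusted p = 0.00909).

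Slc1a1, the neuronal carrier EAAT3, changed least of those that passed. It was at 40.2 and 55.1 CPM in wild type and 34.6, 41 and 46.4 CPM in Kir2.1 at P4. At P8 the values were 54.8, 69.5 and 48.7 CPM in wild type and 61.9, 66.5 and 65.1 CPM in Kir2.1. The ages overlapped through the wild-type libraries, while the Kir2.1 libraries were separate. Its rise of 0.47 ± 0.13 on the log2 scale, or 1.38-fold (edgeR, adjusted p = 0.0181), was lost without wild-type P4 replicate 1 (0.36, edgeR, adjusted p = 0.120) or Kir2.1 P4 replicate 1 (0.40, edgeR, adjusted p = 0.0532).

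Over both genotypes 5 of the 7 members were therefore called between the ages, 4 higher and 1 lower at P8, where 22.8% of all tested genes were called (10.7% higher, 12.1% lower). Library values did not overlap between the ages for 2 members, Slc17a7 among the 4.54% of genes that were higher throughout and Slc17a6 among the 7.1% that were lower throughout. The same 5 members were called without wild-type P8 replicate 1 (24.4% of all genes) or Kir2.1 P8 replicate 2 (19.5%). Slc1a1 was not called without Kir2.1 P4 replicate 1 (18.2%). The Slc17a7 change ran from 2.21 to 3.31 with any 1 library left out. It was 3.47 with wild-type P4 replicate 2 and wild-type P8 replicate 1 both left out. An exact two-sided permutation test on each member alone, with ages exchanged within genotype, gave p = 0.005 for Slc17a6, 0.01 for Slc17a7, 0.015 for Slc1a2 and Slc1a7 and 0.025 for Slc1a1. Slc17a8 (exact permutation p = 0.09) and Slc1a3 (exact permutation p = 0.135) did not pass. After adjustment Slc1a1, Slc1a2 and Slc1a7 no longer passed this test in 8 of 13 alternatives each, and Slc17a6 and Slc17a7 in 2.

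Taken by genotype, 5 of 7 members were called with age in Kir2.1, namely Slc17a6, Slc17a7, Slc1a1, Slc1a2 and Slc1a7, where 16.7% of all genes were called. The 4 higher members stand beside 7.93% of all genes called higher, and Slc17a6 beside 8.73% called lower. In wild type 1 of 7 was called, Slc17a6, where 4.39% of all genes were called, 0.803% higher and 3.58% lower. Library values of the ages were separate in wild type for Slc17a7, as for the 14.2% of genes that were higher throughout, and for Slc17a6, as for the 16.9% that were lower throughout. In Kir2.1 they were separate for Slc17a7, Slc17a8, Slc1a1, Slc1a2 and Slc1a7 (19.4% of all genes higher) and for Slc17a6 (18.7% lower). The Kir2.1 changes were 0.66 ± 0.17 for Slc1a1, 1.17 ± 0.28 for Slc1a2 and 1.24 ± 0.39 for Slc1a7, and the last (edgeR, adjusted p = 0.0490) was lost when any of the 6 Kir2.1 libraries was left out. The calls of Slc1a1 and Slc1a2 were each lost in 3 alternatives and kept in 12. The corresponding wild-type differences were 0.27 ± 0.19, 0.92 ± 0.32 and 1.34 ± 0.46, the last running from 0.79 without wild-type P4 replicate 1 to 2.22 without wild-type P4 replicate 2. Members called in wild type numbered 0 without P4 replicate 1 (0.823% of all genes), 3 without P4 replicate 2 (6.75%) and 4 without P8 replicate 1 (7.19%). Those called in Kir2.1 numbered 2 without P4 replicate 1 (9.76% of all genes) or P8 replicate 2 (11.2%) and 3 without P4 replicate 3 (11.5%) or P8 replicate 3 (10.2%). The age effect itself was not shown to differ between genotypes for any member (edgeR, adjusted p = 1.0 for each), so the longer Kir2.1 list does not show a difference between genotypes.

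**Figure D2:**
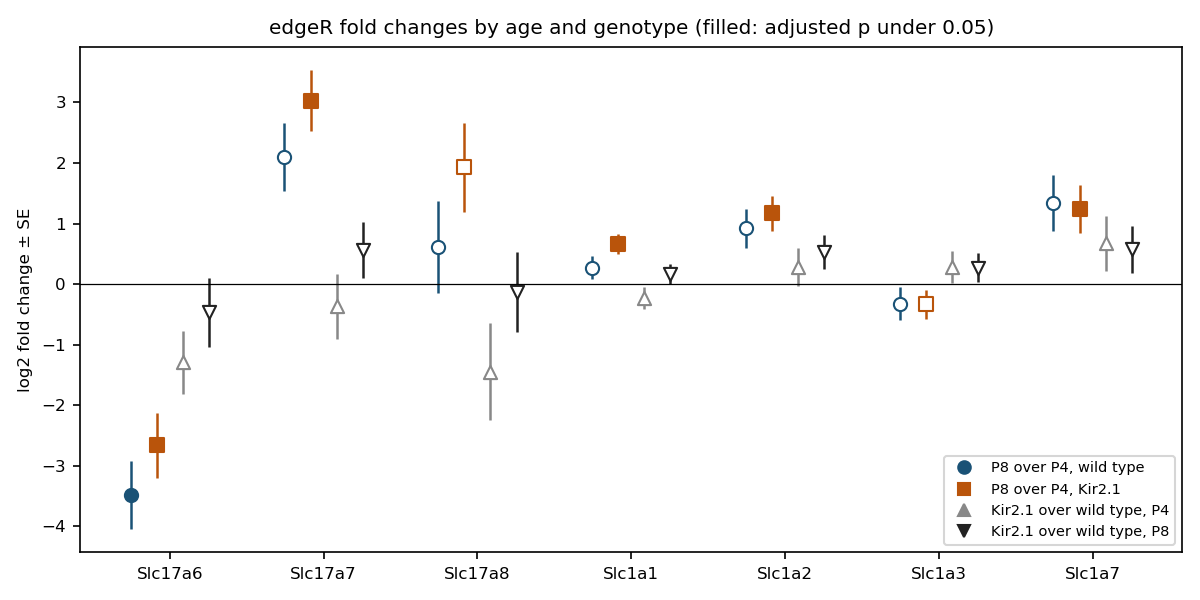
Log2 fold change of each transporter with its SE from edgeR: P8 over P4 in wild type and in Kir2.1, and Kir2.1 over wild type at P4 and at P8. Filled symbols have an adjusted p under 0.05, and every genotype symbol is open. The age changes of Slc17a6 (-3.49 and -2.67) and Slc17a7 (2.1 and 3.03) point in opposite directions in both genotypes.

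The uptake carriers also shifted in proportion. Slc1a3 made up 48.3% and 38.0% of the counts of the 4 plasma membrane genes in wild type at P4, and 44.2%, 45.9% and 38.4% in Kir2.1. At P8 its share was 34.8%, 19.6% and 23.1% in wild type and 26.4%, 21.0% and 17.1% in Kir2.1, below every P4 library. The share dropped by 19.3 percentage points on average (exact permutation p = 0.01, two-sided, adjusted p = 0.01 over 2 shares). Slc1a2 took up the largest part of the difference: it made up 40.8% to 46.7% of these counts at P4 and 49.1% to 65.8% at P8. Slc1a7 stayed under 10% in all libraries, at 2.47% to 6.88% at P4 and 4.78% to 9.53% at P8.

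**Figure D3:**
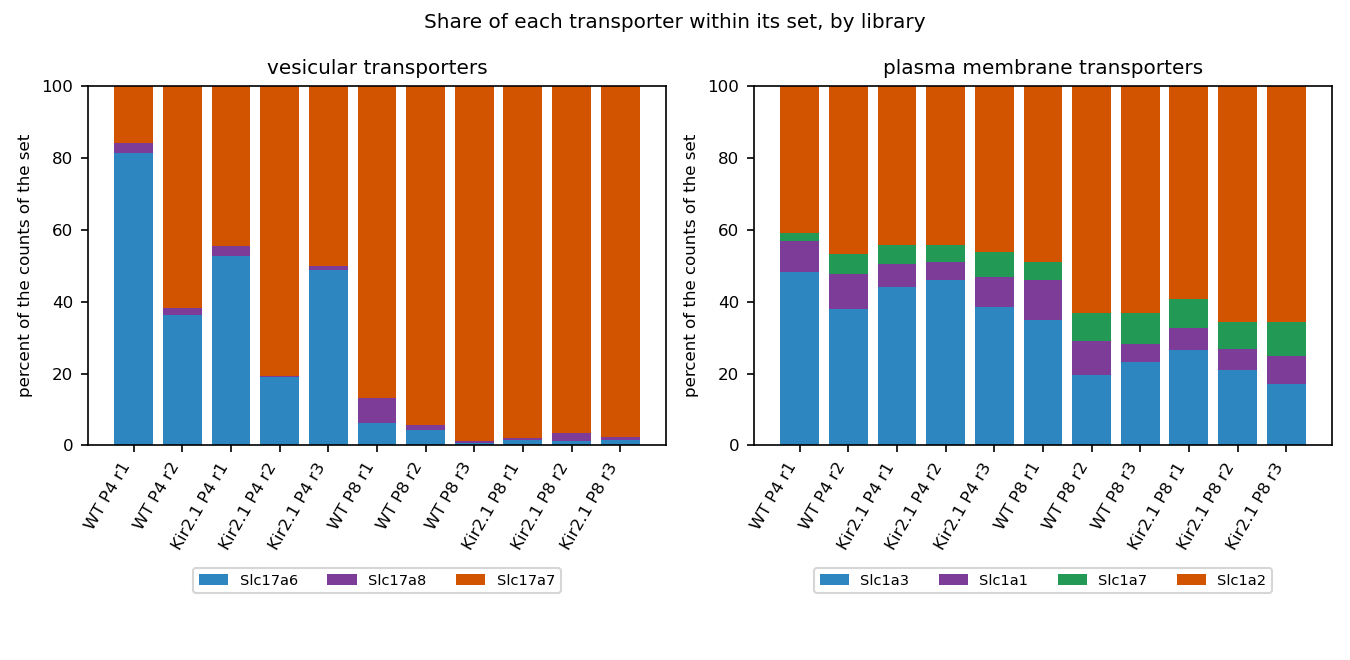
Percent of the counts of the 3 vesicular (left) and 4 plasma membrane (right) transporter genes that came from each gene, 1 stacked bar per library. The Slc17a7 part of the vesicular counts is at least 86.8% in the 6 P8 libraries and at most 80.6% in the 5 P4 libraries, and the Slc1a3 part of the plasma membrane counts is at most 34.8% at P8 and at least 38.0% at P4.

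Levels of different genes can be compared only per length of transcript, here as CPM per kilobase of exon. In wild type at P4 the order was Slc1a3 (26.1 ± 1.03 SD, n = 2), Slc1a2 (17.5), Slc17a6 (7.98), Slc1a7 (6.41), Slc1a1 (5.77), Slc17a7 (5.71) and Slc17a8 (0.360). The libraries of Slc1a3 and of Slc1a2 were separate from the rest, and those of Slc17a6, Slc1a7, Slc1a1 and Slc17a7 overlapped. Kir2.1 at P4 also had Slc1a3 (31.7) and Slc1a2 (21.4) on top, with Slc17a7 at 4.42 and Slc17a6 at 3.27. In wild type at P8 Slc1a2 (33.1 ± 13.9 SD, n = 3) came before Slc17a7 (24.5), Slc1a3 (20.8), Slc1a7 (16.2), Slc1a1 (6.98), Slc17a6 (0.711) and Slc17a8 (0.553). The leading 4 overlapped each other. The order in Kir2.1 at P8 was the same, from Slc1a2 at 48.0 to Slc17a6 at 0.511 and Slc17a8 at 0.506. By group mean Slc17a7 was thus below all 4 plasma membrane genes at P4 and above all but Slc1a2 at P8, and Slc17a6 was down at the level of Slc17a8. Exon length is that of all annotated transcripts of a gene together, so a gene that uses a short transcript is understated on this scale.

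By group mean, Slc17a6 fell in the order wild-type P4, Kir2.1 P4, wild-type P8 and Kir2.1 P8, and only the last neighbours overlapped. For Slc17a7 the order was Kir2.1 P8, wild-type P8, wild-type P4 and Kir2.1 P4, and only wild-type P8 and wild-type P4 were separate. Slc17a8 was highest in wild-type P8, then Kir2.1 P8 and wild-type P4, which all overlapped, and lowest in Kir2.1 P4. Slc1a2 and Slc1a7 shared the order Kir2.1 P8, wild-type P8, Kir2.1 P4 and wild-type P4. All neighbouring groups overlapped for these 2 genes, for Slc1a1 (Kir2.1 P8, wild-type P8, wild-type P4, Kir2.1 P4) and for Slc1a3 (Kir2.1 P4, wild-type P4, Kir2.1 P8, wild-type P8).

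At P4 no member was called between Kir2.1 and wild type, and 0% of all genes were. Slc17a6 was lower in Kir2.1 in all 3 libraries than in both wild-type libraries, by -1.29 ± 0.52 on the log2 scale, with an unadjusted p of 0.0290 and an adjusted p of 0.677 (edgeR). Slc17a8 was likewise separate, at -1.45 ± 0.80 (edgeR, adjusted p = 0.716), from between 2 and 21 counts a library. Values of 14.4% of all genes were lower in every Kir2.1 than in every wild-type P4 library. The other 5 members overlapped, with differences of -0.37 ± 0.54 for Slc17a7, -0.23 ± 0.19 for Slc1a1, 0.29 ± 0.31 for Slc1a2, 0.28 ± 0.27 for Slc1a3 and 0.67 ± 0.45 for Slc1a7. A p that misses the threshold does not show that the genotypes are alike. The Slc17a7 difference turned to 1.12 and that of Slc1a1 to 0.019 without wild-type P4 replicate 2, and Slc17a6 was at -0.76 without wild-type P4 replicate 1. Leaving out 1 library at a time gave 0.074 to 0.54 for Slc1a2 and 0.13 to 1.56 for Slc1a7, the lower value without wild-type P4 replicate 1 and the higher without wild-type P4 replicate 2. For Slc1a3 it gave 0.029 (without Kir2.1 P4 replicate 2) to 0.44 (without replicate 3), and for Slc17a8 -2.31 (without Kir2.1 P4 replicate 1) to -0.96 (without replicate 2). An exact permutation test of 3 against 2 libraries cannot go below p = 0.1, and the smallest value for a member was 0.2.

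At P8 no member was called either, against 0% of all genes, and the libraries of the genotypes overlapped for every member, where 5.5% of all genes were higher and 5.11% lower throughout. The log2 differences of Kir2.1 from wild type were -0.47 ± 0.56 for Slc17a6, 0.56 ± 0.46 for Slc17a7 and -0.13 ± 0.67 for Slc17a8. Those of the uptake carriers were 0.16 ± 0.17 for Slc1a1, 0.53 ± 0.28 for Slc1a2, 0.27 ± 0.24 for Slc1a3 and 0.58 ± 0.39 for Slc1a7. The values of Slc17a7, Slc1a2 and Slc1a7 turned on wild-type P8 replicates 1 and 3, the low and the high wild-type library for all 3. Without the former they were 0.19, 0.23 and 0.21, and without the latter 1.0, 0.84 and 0.98, with none called. Leaving out 1 library moved Slc1a1 within 0.054 to 0.32, its ends set by the third and the second wild-type library, and Slc1a3 within 0.12 to 0.50, set by the first and the third Kir2.1 library. Without wild-type P8 replicate 2, Slc17a6 stood at 0.072. The sign of Slc17a8 turned when the first wild-type library was left out (0.54), and also when the first (0.12) or the third (0.11) Kir2.1 library was. At P8 the smallest exact permutation p for a member was 0.3, where 3 against 3 libraries cannot go below 0.1.

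The effect of Kir2.1 was not shown to change between the ages. The difference of the 2 effects was 0.82 ± 0.77 for Slc17a6, 0.93 ± 0.71 for Slc17a7 and 1.32 ± 1.04 for Slc17a8. It lay between -0.10 ± 0.59 for Slc1a7 and 0.39 ± 0.25 for Slc1a1 among the uptake carriers. The adjusted p was 1.0 for all 7 (edgeR), and 562 of all genes had an unadjusted p under 0.05, none of them a member.

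With no filter on low counts the edgeR fit called more members from nearly the same fold changes. Between the genotypes it called Slc17a6 at P4 (-1.30, adjusted p = 0.000512, with 0.928% of 36534 genes called) and Slc17a7 (0.56, adjusted p = 0.0220) and Slc1a2 (0.53, adjusted p = 0.00944) at P8, with 1.22% of genes called. Slc17a7 was also called for the difference of the effects (edgeR, adjusted p = 0.0172, 0.372% of genes). With age over both genotypes it called all 7 members, Slc17a8 (1.26, adjusted p = 0.0498) and Slc1a3 (-0.33, adjusted p = 0.0140) included, where 12.7% of genes were called. Within Kir2.1 it called Slc17a8 at 1.92 (adjusted p = 0.0289). In that fit edgeR's prior degrees of freedom were infinite, against 5.05 with the filter, so each gene was given the spread of the common trend and its own spread between libraries did not enter. The SE of the Slc17a7 age change was 0.12 in it, against 0.39 with the filter.

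The authors' deposited table for P4 also called no member, with 2.27% of its genes called. It lists Slc17a6 at -0.88 (adjusted p = 0.327) and Slc17a8 at -2.30, with no adjusted p for the latter. Slc1a7 is at -0.15 in the authors' deposited table (adjusted p = 0.912), beside the 0.67 found here, which was 0.13 without wild-type P4 replicate 1. In the authors' deposited table for P8, where 7.27% of genes were called and 3.25% were called higher, Slc1a2 was at 0.84 (adjusted p = 0.0110) and Slc1a7 at 1.0 (adjusted p = 0.0105). The other 5 members were not called there, among them Slc17a7 at 1.01 in the authors' deposited table (adjusted p = 0.175). The headers of both tables state neither the direction, which is read here as Kir2.1 over wild type, nor which libraries entered. With DESeq2 on all 6 P8 libraries no member was called (0.0086% of genes). With wild-type P8 replicate 3 left out, DESeq2 gave 0.83 for Slc1a2 (adjusted p = 0.00965) and 0.98 for Slc1a7 (adjusted p = 0.0136), where 9.23% of genes were called and 3.95% were called higher. That library held the highest wild-type P8 values of both genes, 599 and 81.3 CPM.

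Because these are bulk samples, fewer cells of a type and less RNA per cell cannot be told apart, and the markers of the cells known to use each carrier are given beside it. The summed level of 11 ganglion cell markers was 1857 and 1199 CPM in wild type and 959, 417 and 1006 CPM in Kir2.1 at P4, and 223 to 451 CPM in the P8 libraries. All 11 were called lower at P8 over both genotypes, with a median log2 fold change of -1.98 where the median of all genes was 0.02. Slc17a6 fell further than 10 of them, and only the transcription factor gene Pou4f1 (-3.35) fell more. Per 100 CPM of these markers Slc17a6 was at 1.58 to 3.03 CPM at P4 and 0.620 to 1.37 CPM at P8, with the ages apart but close, at 1.58 in Kir2.1 P4 replicate 2 and 1.37 in wild-type P8 replicate 2. At P4 all 11 markers had a lower estimate in Kir2.1 with none called (median -1.01), beside the -1.29 of Slc17a6. Other lists were as uniform in sign at P4, also with none called: bipolar markers were lower in 11 of 11 (median -1.90), horizontal cell markers lower in 6 of 6 (-0.51), progenitor markers higher in 10 of 10 (0.31) and microglial markers higher in 7 of 7 (0.27). In these 4 lists wild-type P4 replicate 2 stood apart from wild-type P4 replicate 1: bipolar markers summed to 192 CPM in the latter and 461 CPM in the former, against 140 to 168 CPM in Kir2.1. In the same order the horizontal sums were 345, 666 and 325 to 380 CPM. The progenitor sums were 2644, 972 and 2174 to 2746 CPM, and the microglial sums 324, 180 and 234 to 384 CPM. The part of ganglion cell content in the Slc17a6 values was not tested.

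Rod markers rose with Slc17a7. Their summed level was 235 and 1249 CPM in wild type and 450 to 769 CPM in Kir2.1 at P4, with wild-type replicate 2 the highest. At P8 it was 810, 3271 and 7211 CPM in wild type and 6771 to 6984 CPM in Kir2.1, with wild-type replicate 1 the lowest. All 10 rod markers were called higher at P8 over both genotypes, with a median of 3.15, and all 11 bipolar markers, with a median of 3.35. Of all genes 10.7% were called higher. Within wild type 0 rod markers and 1 bipolar marker were called higher (0.803% of all genes). Within Kir2.1 all 10 and all 11 were (7.93% of all genes). No rod marker was at 0 in any library. Slc17a7 rose more than 3 of the rod markers and less than 7. It ran at 3.64 to 4.69 CPM per 100 CPM of rod markers at P4 and 2.67 to 6.89 at P8. The ages overlapped on this scale through wild-type P8 replicates 1 and 2 (6.89 and 4.25). In Kir2.1 they were apart, at 3.64 to 4.53 at P4 and 2.67 to 2.96 at P8. Slc1a7 and Slc1a2 rose less than each of the 10 rod markers: Slc1a7 went from 2.52 to 6.97 CPM per 100 CPM of rod markers at P4 to 1.13 to 2.86 at P8. Between the genotypes at P8 all 10 rod markers had a higher estimate in Kir2.1 with none called (median 0.88), beside 0.56 for Slc17a7. Also with none called, amacrine markers were lower in 10 of 10 (median -0.54), ganglion cell markers lower in 11 of 11 (-0.22, beside -0.47 for Slc17a6) and microglial markers higher in 7 of 7 (0.44). The part of rod content in these differences was not tested.

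Of the markers of the cells of the other carriers, the 10 Müller glial markers summed to 756 to 1202 CPM at P4 and 730 to 996 CPM at P8, with 3 called higher and 2 lower, and Slc1a3 ran at 24.5 to 31.5 CPM per 100 CPM of them at P4 and 18.3 to 31.0 at P8. Abca8a was without counts in wild-type P4 replicate 1 and Kir2.1 P4 replicate 1, and Dio2 in wild-type P8 replicate 1. The library with most Slc1a3, Kir2.1 P4 replicate 2 at 360 CPM, was also that with the highest Müller sum, 1202 CPM. Markers of dividing progenitors fell from 972 to 2746 CPM at P4 to 105 to 165 CPM at P8, with all 10 called lower (median -4.09), while Slc1a3 stayed within 143 to 360 CPM. Per 100 CPM of cone markers Slc1a2 was at 57.3 to 77.9 CPM at P4 and 40.9 to 102 CPM at P8, and 6 of 10 cone markers were called higher (median 0.90). Per 100 CPM of bipolar markers it was at 57.6 to 248.5 CPM at P4 and 35.0 to 60.1 CPM at P8. The ages overlapped in both ratios. Amacrine markers had 2 called higher and 3 lower of 10. Per 100 CPM of them Slc17a8 was at 0.00493 to 0.0619 CPM at P4 and 0.0562 to 0.259 CPM at P8, and Slc1a1 at 1.13 to 1.55 and 1.21 to 4.13 CPM. Per 100 CPM of the 6 horizontal cell markers, of which 2 were called higher and 1 lower, Slc1a1 was at 8.28 to 12.7 CPM at P4 and 3.47 to 8.58 CPM at P8. The ages overlapped in each of these amacrine and horizontal ratios.

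**Figure D4:**
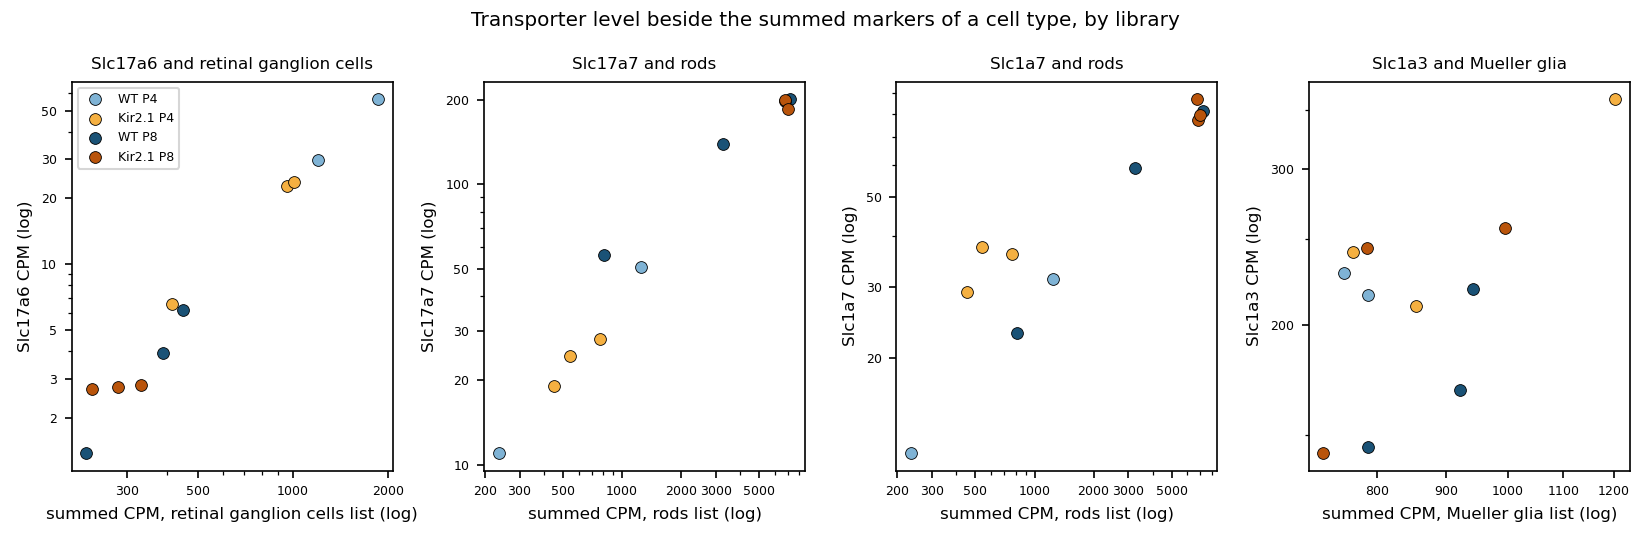
Level of a transporter against the summed CPM of a marker list in each library, both on log axes: Slc17a6 with ganglion cell markers, Slc17a7 and Slc1a7 with rod markers, and Slc1a3 with Müller glial markers. Wild-type P4 replicate 2 (1249 CPM of rod markers) lies beyond the other P4 libraries toward P8, and wild-type P8 replicate 1 (810 CPM) lies beside the P4 libraries.

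The genes whose levels over the 11 libraries were most like each member were found by Pearson's r of log2(CPM + 0.5) among about 12196 genes with a mean of at least 5 CPM. Since the libraries fall into 2 ages, r is also given after the mean of each age was taken out, and both are descriptions with no test. Nearest to Slc17a6 were the neurofilament genes Nefm (0.99, and 0.98 within age) and Nefl (0.98 and 0.96) and the synuclein gene Sncg (0.98 and 0.94), all 3 in the ganglion cell list. Among the genes nearest to Slc17a7 were Lrit1 (0.997 and 0.98), a photoreceptor synaptic protein, and Impg1 (0.996 and 0.99), a proteoglycan of the matrix between photoreceptors. Slc1a7 was nearest to Rgs9 (0.98 and 0.97), which shuts off phototransduction, and to Drc3 and 5330413P13Rik (both 0.98). Slc1a2 was nearest to Fam149a, Wdr31 and Prom1 (all 0.99), the last a protein of photoreceptor disc membranes.

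For the other 3 members the nearest genes were less close. Slc1a1 was nearest to the kinase gene Camk2d (0.96), the protocadherin Pcdhb22 (0.94) and the chloride carrier Clcn3 (0.94). Slc1a3 was nearest to Gsap (0.95), Cyp2j6 (0.92) and Pbxip1 (0.92), and only 6 genes had an r above 0.9, against 533 for Slc17a7 and 499 for Slc1a2. Slc17a8 had 3 such genes, Gm22442, Gm26035 and Gm37897 (0.93, 0.91 and 0.90), though Slc17a8 itself had few counts. Among the members, Slc1a2 and Slc1a7 were the closest (0.94, and 0.89 within age), followed by Slc17a7 with Slc1a2 (0.92 and 0.82) and with Slc1a7 (0.90 and 0.88). Slc17a6 and Slc17a7 ran against each other across the ages (-0.87), and less so within them (-0.42).

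The rest of the glutamate pathway was read from lists chosen by function. Of 14 genes of glutamate synthesis and recycling, 6 were higher and 3 lower at P8 over both genotypes, with a median log2 fold change of 0.38. Over all genes tested 10.7% were called higher and 12.1% lower, against which the counts of this list and the next 4 can be read. Slc25a22, a mitochondrial glutamate carrier, rose by 1.16 ± 0.16 (edgeR, adjusted p = 0.000347), and Got1, the cytosolic aspartate aminotransferase, by 0.80 ± 0.13 (edgeR, adjusted p = 0.000925). The glutamine transporter Slc38a5 rose by 2.45 ± 0.71 (edgeR, adjusted p = 0.0261) from few reads, 0 to 1.62 CPM at P4 and 0.650 to 4.57 CPM at P8. Glul, the glutamine synthetase of Müller glia, fell by 0.49 ± 0.14 (edgeR, adjusted p = 0.0271). The mitochondrial carrier Slc25a13 fell by 0.68 ± 0.22 (edgeR, adjusted p = 0.0431), and the glutamine transporter Slc38a2 by 0.39 ± 0.12 (edgeR, adjusted p = 0.0374).

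The genes of the machinery that powers the carriers were read next. Of 12 genes of the vesicular proton pump and chloride carriers, 7 were called higher and 0 lower, and all 12 had a positive estimate (median 0.32). The largest rises were those of the pump subunits Atp6v1g2 (0.69 ± 0.18), Atp6v1b2 (0.58 ± 0.09) and Atp6v1a (0.52 ± 0.12). Of 6 subunits of the sodium-potassium pump, which maintains the sodium gradient for uptake, 2 were called higher and 0 lower, with 3 estimates above 0 and 3 below. The larger rise was that of Atp1b2, by 1.31 ± 0.16 (edgeR, adjusted p = 0.000179). Of 7 tested genes of 11 other SLC1 and SLC17 carriers and the cystine-glutamate exchanger, 0 were higher and 1 was lower, the neutral amino acid transporter Slc1a5 (-0.85 ± 0.28, edgeR, adjusted p = 0.0469).

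Of 8 metabotropic glutamate receptor genes 2 were called higher and 0 lower. Grm6, the receptor with which ON bipolar cells sense photoreceptor glutamate, was at 0 and 57.3 CPM in wild type and 0.0929, 0.460 and 0.175 CPM in Kir2.1 at P4. It was at 75.3 to 277 CPM in all P8 libraries, a fitted change of 6.03 ± 0.98 on the log2 scale (edgeR, adjusted p = 0.00107). Wild-type P4 replicate 2 alone held Grm6 at a level near that of P8. Grm5 rose by 1.45 ± 0.29 (edgeR, adjusted p = 0.00325). Between the genotypes 0 genes of the 5 pathway lists were called at P4 or at P8.

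**Figure D5:**
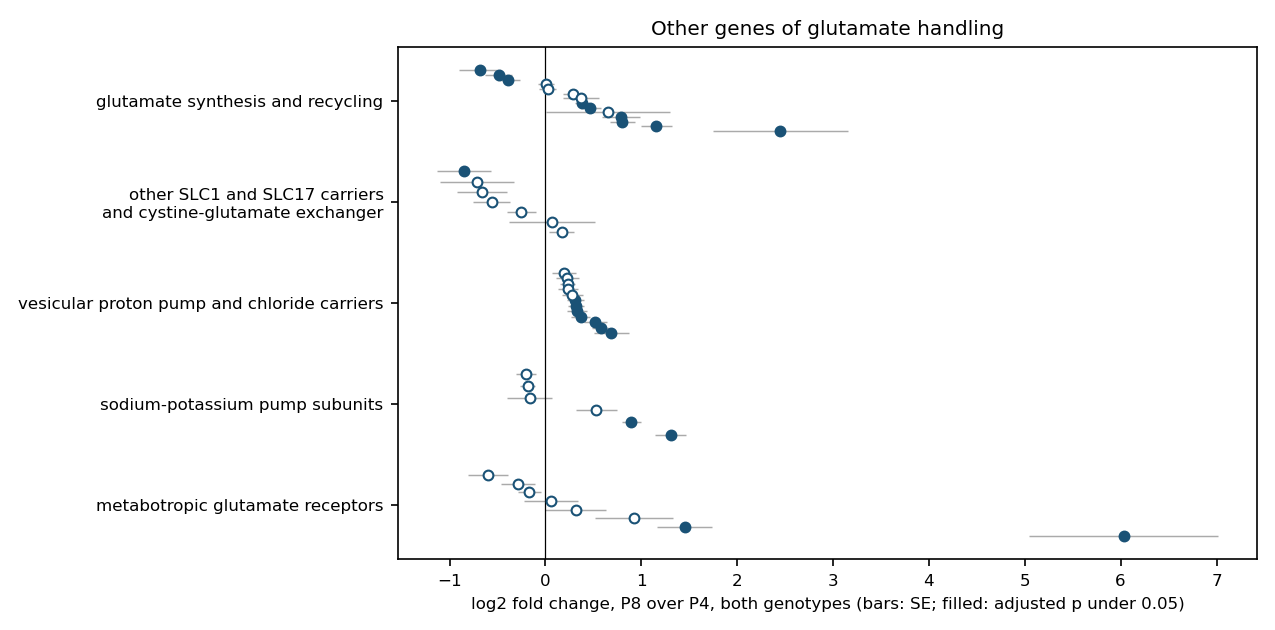
Log2 fold change from P4 to P8 over both genotypes for the tested genes of 5 lists of the glutamate pathway, with SE bars and filled points at an adjusted p under 0.05 (edgeR). All 12 genes of the proton pump and chloride carrier list lie above 0, and Grm6 lies farthest out at 6.03.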

How the data were processed

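Total RNA of dissociated mouse retina was sequenced in 11 libraries, 2 or 3 a group, and the authors deposited whole-number counts per Ensembl gene, 1 table per library. Cutadapt 1.18, SAMtools 1.9, bedtools 2.26.0, STAR 2.5.0c, HTSeq 0.6.1, DESeq2 and the build mm10 are named in the submitters' processing notes, with no role. The strand setting and annotation are not given in the sources used here. Per the file headers, the authors' own comparison tables hold a mean normalized count (a signal), log2 fold changes, a score equal to fold change over standard error, p-values and adjusted p-values. They are quoted only as the authors' own.

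Groups came from the titles. Records that are not genes, among them a row named as a sum, were left out. edgeR 4.0.16 in R 4.3.3 was run on all 11 libraries with 4 group means, TMM factors of 0.964 to 1.05 and filterByExpr, which kept 18188 of 47069 genes and left 7 residual degrees of freedom. With gene counts of 9362215 to 12478838, tests on simulated data recovered 55.5% of 2-fold and 86.5% of 4-fold changes for age over both genotypes, and 35.0% and 69.5% for Kir2.1 at P8. The simulated noise was drawn separately for each gene, and few genes were changed. Libraries that stood apart over all genes were thus not modelled, and recovery in these data may differ. Exact permutation tests used log2(CPM + 0.5) and percent shares, with Benjamini-Hochberg adjustment over 7 members, 2 shares, or 9 values at each age between genotypes. Exon lengths are those of GENCODE M21 on GRCm38, and promoter windows those of RefSeq.

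The members and the lists of markers and pathway genes were chosen with earlier results of these data known. By rule, all members were named, with the 3 most similar genes of each and up to 3 called genes per direction of a pathway list, and some of these are not reported here. Equal replicate numbers are not stated to share an animal or day. Alternatives were other scalings, filters, DESeq2 1.42.0, limma 3.58.1 (voom with quality weights), a replicate block, pseudocounts, and leaving out each library. DESeq2 by age and leaving out a pair of libraries were added after the data had been seen.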

Additional observations from a re-analysis of the deposited data

How the results depend on the processing

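The age results over both genotypes held best. The shares of Slc17a7 (35.3 to 58.2 points) and Slc1a3 (-21.9 to -16.8 points) passed in all settings. With no filter on low counts 7 members were called (4624 of 36534 genes, 12.7%). With both wild-type P4 libraries kept, leaving out 1 other library called 18.1% (Kir2.1 P8 replicate 3) to 24.4% (wild-type P8 replicate 1) of all genes. Without wild-type P4 replicate 1, which leaves 1 library in that group, 19801 genes were tested. Over both genotypes 4 or 5 members were called with any 1 library left out. Genes called there ranged from 2133 (without wild-type P4 replicate 1) to 4417 with 1 library left out. Members past the exact permutation test with age numbered 0 to 6 with 1 library left out, where fewer arrangements are possible, and 0 without wild-type P4 replicate 1 or wild-type P8 replicate 2. Slc1a1, Slc1a2 and Slc1a7 lost it in 8 of these 11 settings. In simulated data 35.0% of 2-fold and 69.5% of 4-fold changes between genotypes were recovered at P8, and P4 was not simulated. The 2 to 50 counts a library of Slc17a8 limit the precision of its values.

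In wild type the age comparison called 798 genes and 1 member. This became 1580 genes and 4 members with the DESeq2 test, 2058 and 4 with no filter on low counts, 113 and 0 with only the groups compared in the fit, and 1845 and 4 with wild-type P4 replicate 2 and wild-type P8 replicate 1 both left out. The voom test with quality weights called 964 genes and 2 members. With 1 library left out the numbers were 163 to 1338 genes and 0 to 4 members in wild type, and 1764 to 2169 genes and 2 to 4 members in Kir2.1.

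Between the genotypes, genes called at P4 went from 0 to 33 with the DESeq2 test, 73 with DESeq2 on the P4 libraries and 339 with no filter, where Slc17a6 was called. At P8 they went from 0 to 3 with the DESeq2 test and with DESeq2 on the P8 libraries, 447 with no filter and 1083 with DESeq2 on 5 P8 libraries, with Slc17a7 and Slc1a2 called by the former of the last 2 and Slc1a2 and Slc1a7 by the latter. For the difference of the Kir2.1 effect between the ages no filter gave 136 genes and 1 member, Slc17a7. With 1 library left out the ranges were 0 to 6, 0 to 219 and 0 to 1 genes, with 0 members. edgeR in the main setting called 0 genes, with 1314, 1240 and 562 at an unadjusted p under 0.05. The causes were not tested.

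Some differences that passed no test also changed sign. With both libraries left out, Kir2.1 against wild type was 1.12 for Slc17a7 and 0.018 for Slc1a1 at P4 and 0.54 for Slc17a8 at P8, the change of effect was -0.92 for Slc17a7 and -0.30 for Slc1a2, and Slc17a8 with age in wild type was -0.16. With voom the change of effect was 0.14 for Slc1a3. With 1 library left out the ranges were, at P4, -1.09 to 1.12 for Slc17a7 and -0.44 to 0.019 for Slc1a1, and at P8, -0.88 to 0.072 for Slc17a6 and -0.79 to 0.54 for Slc17a8. For the change of effect they were -0.56 to 1.65 for Slc17a7, -0.062 to 0.55 for Slc1a2, -0.16 to 0.25 for Slc1a3 and -0.98 to 0.45 for Slc1a7, and for Slc17a8 with age in wild type -0.079 to 0.94. As plain differences of log2(CPM + 0.5) they were -1.09 to 1.06 for Slc17a7 and -0.45 to 0.0064 for Slc1a1 at P4, and -0.74 to 0.18 for Slc17a6 and -0.49 to 0.34 for Slc17a8 at P8. The shares differed by -3.24 to 42.5 points for Slc17a7 and -5.45 to 4.77 points for Slc1a3 at P4, and by -7.47 to 0.16 points for Slc1a3 at P8.

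Equal replicate numbers are not stated to pair samples. Their deviations from group means correlated at 0.15 and 0.07 at P4 and at 0.12, 0.00 and -0.10 at P8. A fit with the replicate number as a block called the same number of members as without it in each comparison (1 in wild type, 5 in Kir2.1, 5 over both, 0 between genotypes). In the same order it called 3.07%, 16.1%, 20.5% and 0% of all genes, against 4.39%, 16.7%, 22.8% and 0% without it. It turned the sign of Slc17a8 at P8 (0.028) and of the change of effect for Slc1a7 (0.083).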
